A study of Mus musculus with 4 samples.

Results

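The genes described here are 10 members of the S100 family that are known from the epidermis and from neutrophils, *S100a3*, *S100a4*, *S100a6*, *S100a7a*, *S100a8*, *S100a9*, *S100a10*, *S100a11*, *S100a14* and *S100a16*. They were chosen by gene symbol, and all 10 were found among the 24346 symbols of the files. RNA sequencing was performed on dorsal skin of male C57BL/6 mice that were 8 weeks old when the diets began. The Cont-IMQ group received the NASH diet, a diet rich in fat, cholesterol and sucrose with bile salt, for 3 weeks and then imiquimod (IMQ) cream for 1 day. The 7KC-IMQ group received the same diet with 7-ketocholesterol (7KC), an oxidized form of cholesterol, and the same cream. Each group had 2 libraries (replicates 1 and 2), all from IMQ-treated skin, so skin without IMQ is not part of the comparison. The labels do not say whether the libraries came from separate mice, and the p-values measure the spread between these libraries.

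S100 proteins are small calcium-binding proteins with paired EF-hand motifs, which act inside cells on annexins, the cytoskeleton and membranes. Some are also released and signal through Toll-like receptor 4 or the receptor Ager. *S100a8* and *S100a9* encode the subunits of calprotectin, which is abundant in neutrophils and is also made by keratinocytes of wounded and psoriatic skin, while most other members are made by resting epidermis, hair follicles or connective tissue.

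The authors deposited FPKM values, fragments per kilobase of exon corrected for the number of mapped fragments, so levels of different genes can be compared per length. The depth estimated from the steps of low values was 15220000 and 15120000 reads for the 2 Cont-IMQ libraries, against 16330000 and 15000000 reads for the 2 with 7KC-IMQ. Skin keratins were abundant in every library (*Krt14* between 4132 and 5699.9 FPKM). The groups were compared on the log2(FPKM + 1) scale by limma over 15896 genes with a mean of at least 0.1 FPKM, with Benjamini-Hochberg adjustment, and on this scale the fold changes of low genes come out too small. All 10 S100 genes passed that filter.

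Of the 10 genes, 5 had both 7KC-IMQ values above both Cont-IMQ values (*S100a8*, *S100a9*, *S100a11*, *S100a14* and *S100a16*), against 23.9% of all genes tested. Only *S100a10* was lower in both, against 22.9% of all genes, and *S100a3*, *S100a4*, *S100a6* and *S100a7a* overlapped between the groups. Counts without overlap in the lists below, in the deposited values, stand beside these same shares. In limma, 2 members (*S100a8* and *S100a9*) were higher at an unadjusted p under 0.05, against 7.50% of all genes, and 0 were lower, against 5.47%. After adjustment 0 of the 10 passed, against 0.00629% of all genes, which is 1 gene, *Mir24-2*. The adjusted p-values of the 10 genes lay between 0.352 and 0.941 in limma. Their median log2 fold change was 0.15, beside -0.0056 over all genes tested. Over all genes, 3801 were higher and 3634 lower without overlap, and with each library rescaled to the same summed FPKM these counts were 2382 and 5113. With that rescaling 4 of the 10 were higher without overlap, against 15.0% of all genes, and with quantile normalization 3, against 23.2%. These counts were lower because *S100a11* overlapped under both and *S100a16* under the latter.

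**Figure D1:**
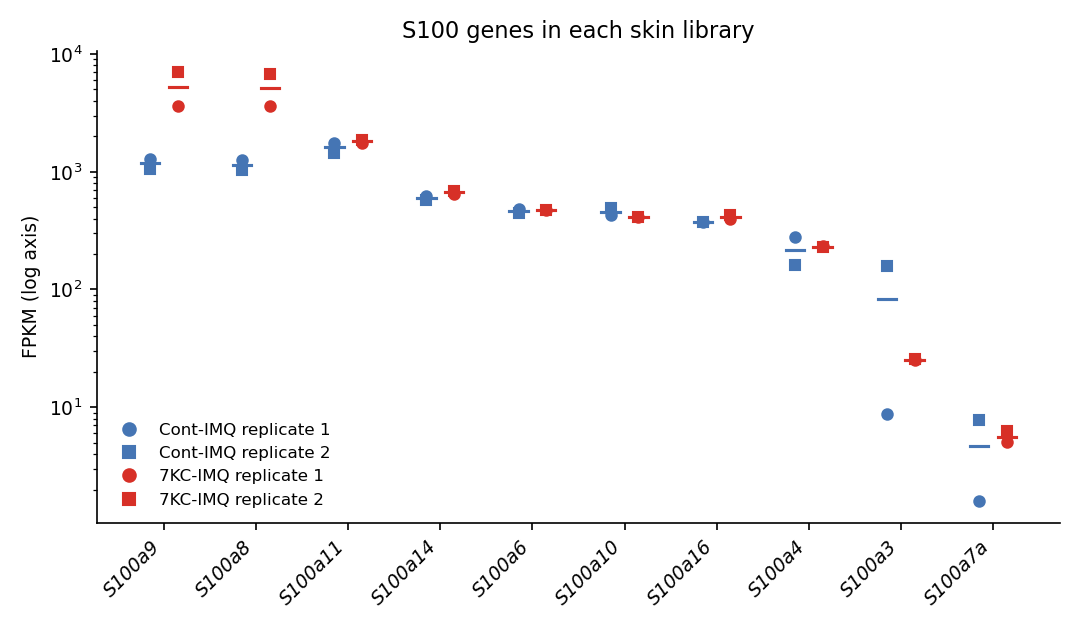
FPKM of the 10 S100 genes (vertical log axis) in each library, ordered by their mean, with circles for replicate 1, squares for replicate 2 and a bar for the mean of each group. The 7KC-IMQ points of *S100a8* and *S100a9* lie between 3586 and 7009.9 FPKM, above all Cont-IMQ points, while the Cont-IMQ points of *S100a3* lie at 8.70 and 157 FPKM on either side of the 7KC-IMQ points.

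The genes encoding calprotectin differed most between the groups. *S100a8* (ENSMUSG00000056054.9, chromosome 3 of GRCm38, 90668978 to 90670035, plus strand) had 1267 (replicate 1) and 1037 FPKM (replicate 2) with Cont-IMQ, against 3608 (replicate 1) and 6775 FPKM (replicate 2) with 7KC-IMQ. Both 7KC-IMQ libraries were thus above both Cont-IMQ libraries, and 7KC-IMQ replicate 2 was the highest of the 4. The means were 1152 ± 162 FPKM with Cont-IMQ against 5192 ± 2239.7 FPKM with 7KC-IMQ (SD, n = 2), a ratio of 4.51. The log2 difference was 2.11 in limma (standard error 0.33, interval 1.23 to 2.99), with an adjusted p = 0.352. *S100a9* (ENSMUSG00000056071.12, 90692632 to 90695721, minus strand) had 1293 (replicate 1) and 1063 FPKM (replicate 2) with Cont-IMQ, against 3586 (replicate 1) and 7009.9 FPKM (replicate 2) with 7KC-IMQ. Its libraries were in the same order as those of *S100a8*, without overlap between the groups. The mean was 1178 ± 163 FPKM with Cont-IMQ against 5298 ± 2421 FPKM with 7KC-IMQ (SD, n = 2), a ratio of 4.497, and the log2 difference was 2.10 (standard error 0.35, adjusted p = 0.352 in limma). Among all genes tested, 17 had a log2 fold change at least as high as that of *S100a9*, itself included. Leaving out 1 library at a time, the difference ranged from 1.65 to 2.56 for *S100a8* and from 1.61 to 2.58 for *S100a9*.

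These levels put both genes among the most abundant transcripts of the skin. *S100a8* ranked 90th and 106th among all symbols in the Cont-IMQ libraries, and 10th and 3rd in the 7KC-IMQ libraries. *S100a9* ranked 87th and 103rd in the Cont-IMQ libraries, and 11th and 2nd in the 7KC-IMQ libraries. Depth did not limit either gene, as the value of *S100a8* rests on an estimated 4500.5 reads or more in every library, and no 75-base window of either gene occurs in another annotated transcript. The ratio of *S100a8* to *S100a9* FPKM was 0.980 (replicate 1) and 0.976 (replicate 2) with Cont-IMQ, against 1.01 (replicate 1) and 0.967 (replicate 2) with 7KC-IMQ. Both subunits thus stood near equal FPKM in every library, and the groups overlapped in this ratio (two-sided exact permutation p = 1). With 2 libraries on each side, 0.33 is the smallest p that this exact permutation can reach.

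The start regions of *S100a8* and *S100a9* are shown because these genes had like values over the 4 libraries, and that of *S100a7a* because it is the nearest other member. RefSeq promoters (GRCm38.p6, 250 bases before to 50 after each annotated start) were found for 8 of the 10 members, 12 promoters in all, and not for *S100a10* and *S100a14*. They lie at chr3:90668821-90669120 on the plus strand for *S100a8*, chr3:90695672-90695971 on the minus strand for *S100a9* and chr3:90654052-90654351 on the plus strand for *S100a7a*. Each is written 5′ to 3′ on the strand of its gene, with the motifs found in capitals.
S100a8: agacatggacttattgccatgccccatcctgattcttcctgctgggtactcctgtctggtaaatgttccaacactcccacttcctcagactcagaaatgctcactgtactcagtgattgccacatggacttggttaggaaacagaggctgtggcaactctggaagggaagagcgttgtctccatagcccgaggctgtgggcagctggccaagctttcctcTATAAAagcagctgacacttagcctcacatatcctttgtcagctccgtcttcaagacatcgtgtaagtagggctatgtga
S100a9: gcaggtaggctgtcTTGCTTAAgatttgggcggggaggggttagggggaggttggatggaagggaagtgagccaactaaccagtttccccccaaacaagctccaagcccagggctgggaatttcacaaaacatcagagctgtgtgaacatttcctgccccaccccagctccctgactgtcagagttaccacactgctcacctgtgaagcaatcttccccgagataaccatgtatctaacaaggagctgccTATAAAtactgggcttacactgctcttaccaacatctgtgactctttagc
S100a7a: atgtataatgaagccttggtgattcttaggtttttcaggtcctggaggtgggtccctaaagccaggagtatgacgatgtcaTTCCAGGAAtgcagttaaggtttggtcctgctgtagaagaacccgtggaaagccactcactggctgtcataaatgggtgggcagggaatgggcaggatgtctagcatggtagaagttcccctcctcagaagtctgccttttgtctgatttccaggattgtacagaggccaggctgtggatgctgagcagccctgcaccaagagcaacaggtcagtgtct
The motifs searched on both strands were TATAAA (the TATA box), TGANTCA (AP-1), TTCNNNGAA (STAT), GGGNNTTCC (NF-kB) and TTGCNNAA (C/EBP), which 13.6%, 7.81%, 8.30%, 5.82% and 10.8% of the 32851 promoters of the table hold. No 2 matches overlap in the printed sequences. In *S100a8* the capitals mark TATAAA 30 bases before the annotated start. In *S100a9* they mark TTGCTTAA, a C/EBP match, 236 bases before the start, and TATAAA at the start itself. In *S100a7a* they mark TTCCAGGAA, a STAT match, 169 bases before the start. Of the other members, *S100a4* has TATAAA 31 bases before its start, *S100a3* has it 52 bases before 1 of its 4 starts, *S100a11* has 2 AP-1 matches and *S100a16* has 1 in 1 of its 2 promoters. *S100a6* has none of the 5 motifs in this window, and no member promoter holds the NF-kB letters. A match describes the letters and does not show that a factor binds there.

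The profiles most like that of *S100a8* were sought among 7098 genes with a mean of at least 10 FPKM, by the distance between log2(FPKM + 1) values centred on each gene's mean over the 4 libraries. *S100a9* was nearest (0.043), followed by *Sprr2f* (0.14), *Uox* (0.17), *Sprr2d* (0.25) and *Sprr2i* (0.29). The same 4 genes besides its partner were nearest to *S100a9*, with *Uox* at 0.18 and *Sprr2i* at 0.31. The Sprr2 genes encode small proline-rich proteins of the cornified envelope, and *Uox* encodes urate oxidase. *Sprr2f* had 38.0 and 29.1 FPKM with Cont-IMQ against 115 and 189.9 FPKM with 7KC-IMQ, the same order of libraries as *S100a8*.

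Most cytokines of a list that act on keratinocytes and are known to induce *S100a8* and *S100a9* were higher in the 7KC-IMQ libraries as well. Of 15 tested, 13 were higher without overlap and 0 lower, against 23.9% and 22.9% of all genes. The same 13 and 0 were counted under median ratio scaling, equal summed FPKM and quantile normalization. In limma 13 were higher at an unadjusted p under 0.05, against 7.50% of all genes, and 0 passed after adjustment. The median log2 fold change was 0.79. The most abundant of them, *Il1f6*, chosen after its values were seen, had 168 and 113 FPKM against 161 and 224 FPKM and overlapped between the groups, as did *Il1f8*. *Il1f9*, the most abundant without overlap, had 119 and 95.2 FPKM against 131 and 153 FPKM (log2 difference 0.41). Larger differences were those of less abundant cytokines. *Il19* had 8.71 and 5.49 FPKM against 32.6 and 35.4 FPKM, and *Il17c* had 8.53 and 8.47 FPKM against 18.4 and 18.2 FPKM. *Il6* had 1.78 and 2.54 FPKM against 5.40 and 12.5 FPKM, and, like *S100a8*, it was highest in 7KC-IMQ replicate 2. *Il17a*, chosen after its values were seen, had an estimated 1 and 5 reads in the Cont-IMQ libraries and 13 and 21 reads in the 7KC-IMQ libraries. Of the 13 receptors of these cytokines, 5 were higher and 2 lower without overlap (4 and 4 after rescaling to the same summed FPKM), with *Osmr* at 15.6 and 15.8 FPKM against 23.1 and 24.3 FPKM and *Il20rb* at 82.6 and 53.7 FPKM against 49.0 and 35.9 FPKM. Among 12 transcription factors known to act on these promoters or in stressed epidermis, 5 were higher and 2 lower without overlap (4 and 3 after that rescaling). *Cebpb* had 112 and 117 FPKM against 134 and 204 FPKM, and *Stat3* had 81.9 and 68.5 FPKM against 98.1 and 103 FPKM. *Fos*, a subunit of AP-1, had 496 and 546 FPKM against 97.4 and 277 FPKM.

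Keratins of stressed epidermis had the same order of groups as *S100a8*. All 4 of the list (*Krt6a*, *Krt6b*, *Krt16* and *Krt17*) were higher without overlap, against 23.9% of all genes. In limma all 4 were higher at an unadjusted p under 0.05, against 7.50% of all genes, with adjusted p-values between 0.356 and 0.365. Their median log2 fold change was 1.14. *Krt16* had 1159 and 1333 FPKM with Cont-IMQ against 2035 and 3368 FPKM with 7KC-IMQ. *Krt6a* had 385 and 542 FPKM against 741 and 1488 FPKM. Of its 75-base windows 51.1% occur in other genes, as do 39.6% of those of *Krt6b* and 28.9% of those of *Krt16*. All 4 keratins were higher in replicate 2 of both groups, while *S100a8* and *S100a9* were higher in replicate 2 with 7KC-IMQ and lower in it with Cont-IMQ. The summed FPKM of the list was 3220.1, 3798.5 and 5250.3, 8698 over Cont-IMQ replicates 1 and 2 and 7KC-IMQ replicates 1 and 2. The ratio of *S100a8* to *Krt16* FPKM was 1.09 and 0.778 with Cont-IMQ against 1.77 and 2.01 with 7KC-IMQ (two-sided exact permutation p = 0.33), higher in both 7KC-IMQ libraries.

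Neutrophils are another source of calprotectin, and the neutrophil list holds no S100 gene. Of its 18 genes 17 are in the files, without *Ly6g*, and 14 were tested. Of these, 7 were higher and 3 lower without overlap, against 23.9% and 22.9% of all genes. In limma 4 were higher at an unadjusted p under 0.05, against 7.50% of all genes, and 0 passed after adjustment. The median log2 fold change of the list was 0.11. The summed FPKM of the 17 genes was 150.4 and 194 with Cont-IMQ against 163 and 141 with 7KC-IMQ. *Il1r2* was the most abundant with a mean of 102 FPKM and held the largest part of each sum, so the sum mainly follows this gene. *Cxcr2*, a chemokine receptor of neutrophils, had 13.4 and 15.0 FPKM against 20.2 and 23.0 FPKM. *Csf3r* had 3.80 and 3.64 FPKM against 3.93 and 4.501 FPKM, while *Il1r2* had 102 and 127 FPKM against 100.1 and 76.6 FPKM. *Retnlg*, another defining marker, had 0.821 and 1.66 FPKM against 3.38 and 2.00 FPKM. The granule genes *Mpo*, *Elane*, *Ngp*, *Camp* and *Ltf* were low in every library, with *Elane* in Cont-IMQ replicate 2 the highest at 0.7405 FPKM, and each was listed at 0 in at least 1. The ratio of *S100a8* to *Cxcr2* FPKM was 94.6 and 68.9 with Cont-IMQ against 179 and 294 with 7KC-IMQ (two-sided exact permutation p = 0.33). In whole skin, more cells of a type and more RNA per cell, like fewer cells of a type and less RNA per cell, cannot be told apart, and the part of neutrophils, stressed keratinocytes and cytokines in the difference of *S100a8* and *S100a9* was not tested.

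**Figure D2:**
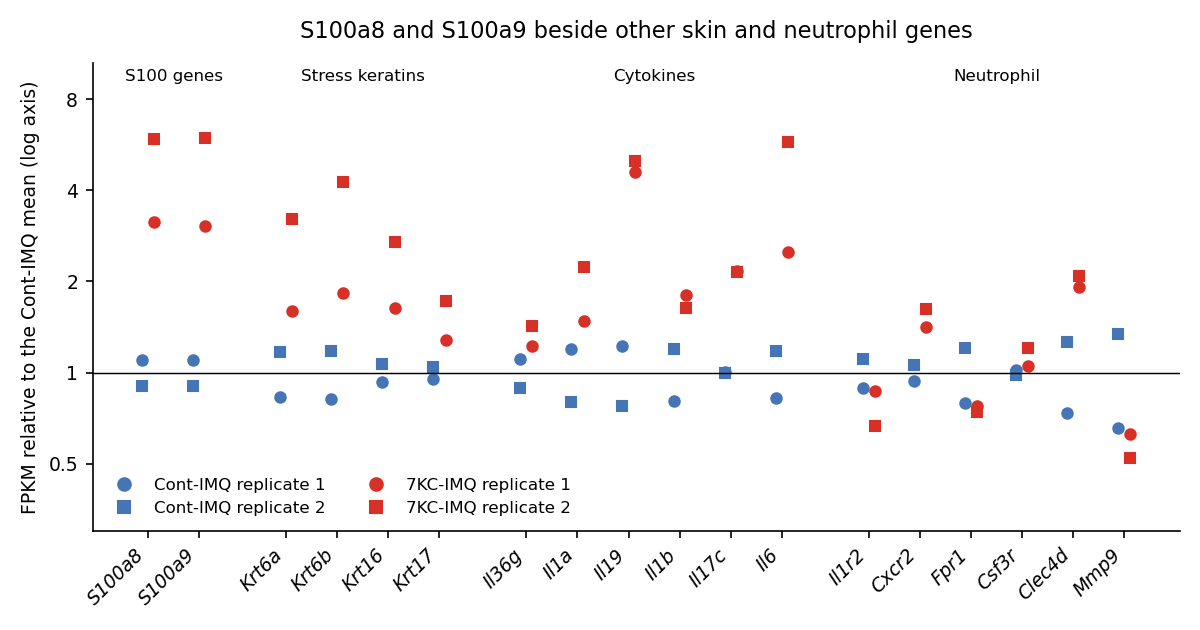
FPKM of *S100a8*, *S100a9*, stress keratins, cytokines (the 6 most abundant without overlap) and neutrophil genes (likewise 6) in each library, relative to the Cont-IMQ mean of the same gene (vertical log axis). *S100a8*, *S100a9* and the 4 keratins are higher in both 7KC-IMQ libraries, whereas *Il1r2*, *Fpr1* and *Mmp9* of the neutrophil genes are lower in both. The 6 cytokines are higher in both by their choice, as no cytokine was lower without overlap, and *Il1f6* and *Il1f8*, which overlapped, are not drawn.

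Genes whose products receive or bind the S100 proteins had shares of higher and lower genes near those of all genes. Of 18 tested, 5 were higher and 4 lower without overlap (4 and 5 after rescaling to the same summed FPKM), 2 were higher and 2 lower at an unadjusted p under 0.05 in limma, 0 passed after adjustment, and the median log2 fold change was -0.015. *Tlr4*, a receptor of calprotectin, had 7.21 and 7.55 FPKM with Cont-IMQ against 6.55 and 5.99 FPKM with 7KC-IMQ, lower in both of the latter. *Ly96*, which encodes the protein MD-2 that binds Tlr4, had 15.5 and 14.1 FPKM against 18.5 and 21.7 FPKM, higher in both. *Ager* was low throughout, with 0.677 and 0.789 FPKM against 0.317 and 0.317 FPKM.

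*S100a7a*, the mouse relative of human psoriasin, an antimicrobial S100 protein of inflamed epidermis, starts at -15.0 kb from *S100a8* (ENSMUSG00000063767.4, 90654017 to 90658669, plus strand). It had 1.60 (replicate 1) and 7.81 FPKM (replicate 2) with Cont-IMQ, against 5.05 (replicate 1) and 6.22 FPKM (replicate 2) with 7KC-IMQ. The Cont-IMQ libraries lay on either side of both 7KC-IMQ libraries, so the groups overlapped. With the longest annotated transcript these values correspond to at most 26.2, 128, 89.1 and 101 reads, and 3.70% of its windows occur in other genes. The means were 4.70 ± 4.39 and 5.64 ± 0.832 FPKM (SD, n = 2), with a log2 difference of 0.47 (standard error 0.59, adjusted p = 0.773 in limma) that was -0.41 without Cont-IMQ replicate 1 and 1.35 without Cont-IMQ replicate 2. Unlike the calprotectin genes, *S100a7a* differed more within the Cont-IMQ group than between the groups. Its nearest profiles among 7099 genes were those of *Slc39a10* (0.38), *Epgn* (0.40), *Mgp* (0.46), *Tyrp1* (0.50) and *5730408K05Rik* (0.51), all lowest in Cont-IMQ replicate 1.

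*S100a3* is known from the cuticle of the hair shaft, where the enzyme Padi3 modifies it (ENSMUSG00000001021.12, 90560578 to 90602702, plus strand). It had 8.70 (replicate 1) and 157 FPKM (replicate 2) with Cont-IMQ, against 25.1 (replicate 1) and 25.6 FPKM (replicate 2) with 7KC-IMQ. The 7KC-IMQ libraries were nearly equal and lay between the Cont-IMQ libraries, which differed 18.1-fold. The means were 83.1 ± 105 FPKM with Cont-IMQ against 25.3 ± 0.301 FPKM with 7KC-IMQ (SD, n = 2), with a log2 difference of -0.57 (standard error 1.33, adjusted p = 0.886 in limma). Without Cont-IMQ replicate 1 the difference was -2.59 (adjusted p = 0.0404 in limma), and without Cont-IMQ replicate 2 it was 1.44 (adjusted p = 0.167 in limma), so each of these libraries sets the direction. *S100a3* and *S100a7a* were highest in Cont-IMQ replicate 2 and lowest in Cont-IMQ replicate 1, 2 of the 10 members against 9.24% of all genes tested. The profiles nearest to *S100a3* were all of hair follicle genes, *Tchh* (0.40), *Krt27* (0.42), *Prr9* (0.47), *Krt71* (0.53) and *Krt25* (0.71). The pigment cell genes *Mlana*, *Dct* and *Pmel*, chosen after their values were seen, were also highest in Cont-IMQ replicate 2 and lowest in Cont-IMQ replicate 1. *Dct* had 16.7 and 51.7 FPKM against 29.0 and 26.1 FPKM. They were picked from a longer list, in which other genes, among them *Sox10*, did not have both.

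Most hair genes listed shared with *S100a3* the highest and the lowest library, while the order of the 7KC-IMQ libraries between them varied. *Tchh*, which encodes trichohyalin of the inner root sheath, had 8.77 and 136 FPKM with Cont-IMQ against 31.6 and 29.3 FPKM with 7KC-IMQ. *Padi3* had 0.883 and 13.2 FPKM against 3.15 and 3.01 FPKM. Of 18 genes of the hair shaft and cuticle, 17 were both highest in Cont-IMQ replicate 2 and lowest in Cont-IMQ replicate 1, and of 10 genes of the inner root sheath 9 were. In the deposited values *Krt84* alone did not overlap between the groups, with 1.37 and 2.13 FPKM against 2.26 and 3.95 FPKM, and after rescaling to the same summed FPKM or quantile normalization 1 inner root sheath gene was lower without overlap as well. No gene of these lists passed after adjustment, and 0 had an unadjusted p under 0.05 in limma, with median log2 fold changes of -0.39 and -0.17. The summed FPKM of the shaft and cuticle list was 42.9, 255 and 94.8, 88.3, and that of the inner root sheath list was 153, 1552 and 470.2, 406 (most abundant *Krt35*, with a mean of 33.5 FPKM, and *Krt71*, with 196 FPKM). *Krt86* and *Krt74* were listed at 0 in Cont-IMQ replicate 1, and the part of hair follicle content in the values of *S100a3* was not tested.

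**Figure D3:**
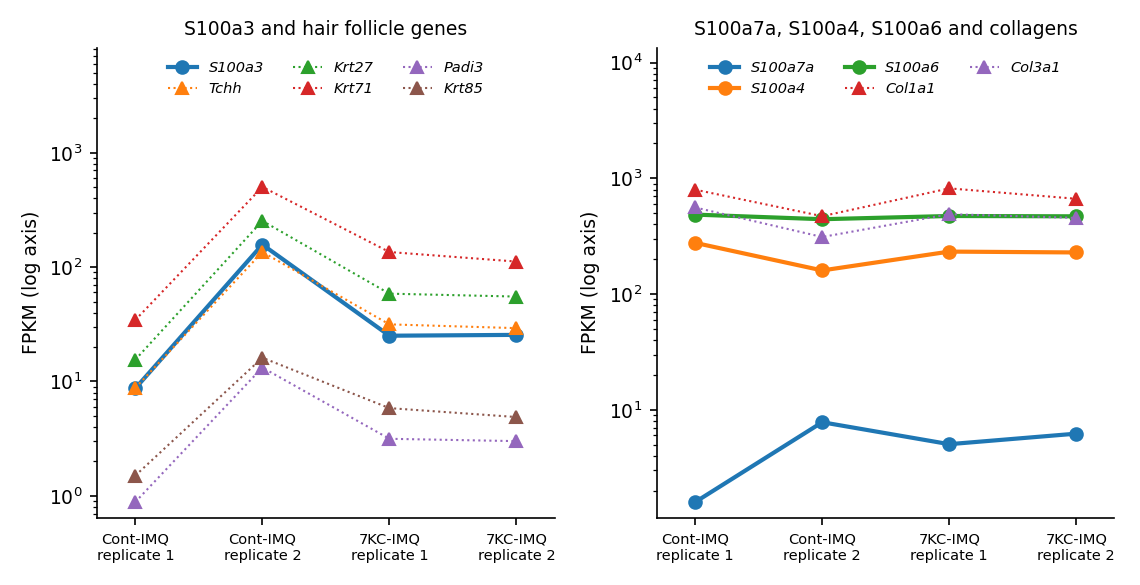
FPKM (vertical log axis) in each library of *S100a3* with 5 hair follicle genes (left), and of *S100a7a*, *S100a4* and *S100a6* with 2 collagen genes (right). The lines join the values of 1 gene for the eye, and on the left every gene is lowest in Cont-IMQ replicate 1 and highest in Cont-IMQ replicate 2, while on the right *S100a4* is lowest in Cont-IMQ replicate 2, as are the 2 collagens, which were chosen after their values were seen from a fibroblast list where 5 of 9 genes are lowest there.

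*S100a4* and *S100a6* are expressed in fibroblasts and other motile cells, where they bind myosin and annexins. *S100a4* (ENSMUSG00000001020.8, 90603771 to 90606045, plus strand) had 277 (replicate 1) and 159.9 FPKM (replicate 2) with Cont-IMQ, against 233 (replicate 1) and 229 FPKM (replicate 2) with 7KC-IMQ. The 7KC-IMQ libraries again lay between the Cont-IMQ libraries. In limma its log2 difference was 0.13 (standard error 0.27, adjusted p = 0.867), and it was -0.26 without Cont-IMQ replicate 2 and 0.53 without Cont-IMQ replicate 1. The exons of *S100a4* overlap the annotated gene *Gm42674*, with which 44.8% of its 75-base windows are shared. *Gm42674* is not among the symbols of the files, and whether this overlap affected the counting of *S100a4* is not known. *S100a6* (ENSMUSG00000001025.8, 90612882 to 90624181, plus strand) had 486 and 443 FPKM with Cont-IMQ against 472 and 469 FPKM with 7KC-IMQ, close to equal in all 4. It had the smallest log2 difference of the 10, 0.022 (standard error 0.090, adjusted p = 0.941 in limma), with a 95% interval from -0.21 to 0.26, and its sign turned under equal summed FPKM and quantile normalization. Of 9 fibroblast genes, 1 was higher (*Pdgfra*) and 1 lower (*Dcn*) without overlap (1 and 2 after rescaling to the same summed FPKM). In limma 0 of these genes had an unadjusted p under 0.05, and the median log2 fold change was 0.14 (0.053 after that rescaling). Their summed FPKM was 3552, 2608 and 3335, 2935, with *Dcn* the most abundant (mean 1024 FPKM), and its part was not tested. Of the 9, 5 were lowest in Cont-IMQ replicate 2, as *S100a4* was, among them *Col1a1* and *Col3a1*, which were chosen after their values were seen. This was not particular to fibroblast genes, as 7 of the 10 members and 12 of the 15 cytokines tested were lowest in that library too. Many of those members and cytokines were higher without overlap with 7KC-IMQ, which by itself places their lowest value in a Cont-IMQ library. The share of all genes lowest in Cont-IMQ replicate 2 was not computed.

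The remaining members are made by epithelial and many other cells, and each differed little between the groups. *S100a11* (ENSMUSG00000027907.4, 93520488 to 93526287, plus strand), a partner of annexin A1 in the cornified envelope, had 1764 (replicate 1) and 1451 FPKM (replicate 2) with Cont-IMQ, against 1771 (replicate 1) and 1867 FPKM (replicate 2) with 7KC-IMQ. Both 7KC-IMQ libraries were above both Cont-IMQ libraries, but 7KC-IMQ replicate 1 exceeded Cont-IMQ replicate 1 by little. Its means were 1608 ± 221 and 1819 ± 68.0 FPKM (SD, n = 2), with a log2 difference of 0.18 (standard error 0.14, adjusted p = 0.618 in limma) that was 0.044 without Cont-IMQ replicate 2, 0.33 without Cont-IMQ replicate 1 and 0.10 under either the same summed FPKM or quantile normalization. Of its windows 37.8% also occur in *Gm12854* and *Gm7665*. *S100a14* (ENSMUSG00000042306.11, 90526856 to 90528837, plus strand), an S100 protein of epithelia, had 626 and 578 FPKM against 649 and 689 FPKM. Both 7KC-IMQ libraries were the higher, with a log2 difference of 0.15 (standard error 0.095, adjusted p = 0.552 in limma). *S100a16* (ENSMUSG00000074457.10, 90537254 to 90543151, plus strand) had 376 and 372 FPKM against 396 and 431 FPKM. Here too both 7KC-IMQ libraries were the higher, with a log2 difference of 0.14 (standard error 0.086, adjusted p = 0.540 in limma). This difference depended on scaling, being 0.061 with the same summed FPKM and 0.00042 with quantile normalization, and that of *S100a14* was 0.071 and 0.068. With a library left out, that of *S100a16* ranged from 0.082 (without 7KC-IMQ replicate 2) to 0.20 and that of *S100a14* from 0.096 (without Cont-IMQ replicate 2) to 0.21. The intervals of these 3 differences, -0.19 to 0.56, -0.098 to 0.40 and -0.084 to 0.37, all include 0 and end below the lower bound of *S100a8*. Of 11 housekeeping genes, 7 were higher and 3 lower without overlap (4 and 3 after rescaling to the same summed FPKM). Their median log2 fold change was 0.11 in the deposited values, close to that of *S100a14* and *S100a16*. It was 0.028 with the same summed FPKM and 0.020 with quantile normalization, below the differences of *S100a14* under the same scalings.

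*S100a10* (ENSMUSG00000041959.14, 93555080 to 93564643, plus strand) encodes the light chain of the annexin A2 tetramer. It had 426 (replicate 1) and 489.7 FPKM (replicate 2) with Cont-IMQ, against 414 (replicate 1) and 412 FPKM (replicate 2) with 7KC-IMQ. It was the only member lower in both 7KC-IMQ libraries, and its Cont-IMQ libraries differed more from each other than Cont-IMQ replicate 1 did from the 7KC-IMQ libraries. The means were 458 ± 44.7 and 413 ± 1.17 FPKM (SD, n = 2), with a log2 difference of -0.15 (standard error 0.10, adjusted p = 0.590 in limma). Without Cont-IMQ replicate 2 it was -0.046 and without Cont-IMQ replicate 1 it was -0.25, while the same summed FPKM gave -0.23 and quantile normalization -0.26. The partner *Anxa2* had 1077 and 976 FPKM against 1135 and 1204 FPKM, higher in both 7KC-IMQ libraries, and *Ahnak*, a large protein that binds S100A10 and annexin A2, had 92.2 and 85.0 FPKM against 69.3 and 64.3 FPKM, lower in both. *Anxa1*, the partner of *S100a11*, had 655 and 680.3 FPKM against 553 and 620.2 FPKM, lower in both.

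**Figure D4:**
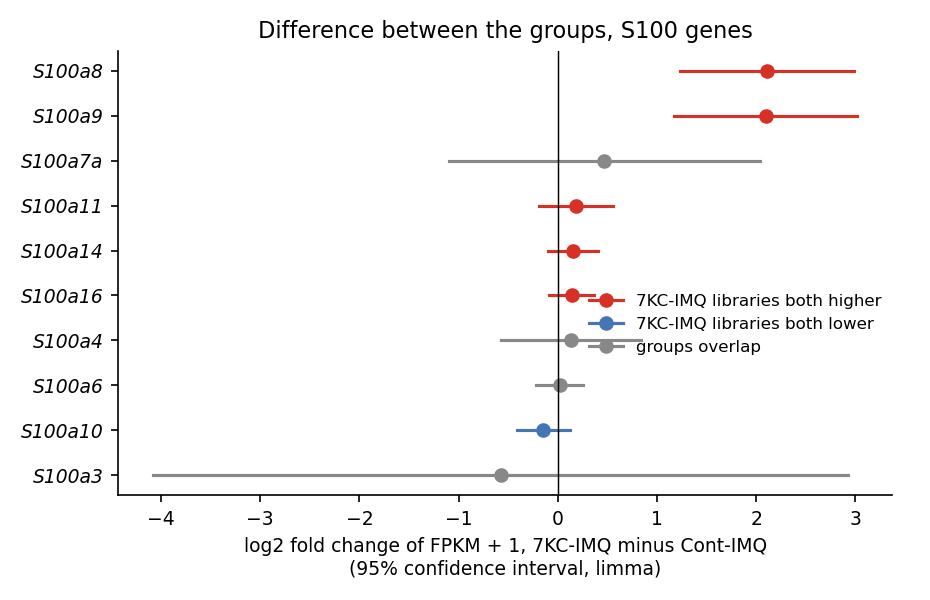
Log2 fold change of FPKM + 1 (7KC-IMQ minus Cont-IMQ, horizontal axis) of the 10 S100 genes with its 95% confidence interval in limma, coloured by whether both 7KC-IMQ libraries were higher, both were lower or the groups overlapped. The intervals of *S100a8* (1.23 to 2.99) and *S100a9* (1.17 to 3.02) exclude 0 before adjustment for the number of genes, and the interval of *S100a3* is the widest, from -4.08 to 2.93.

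The order of the members by level differed between the groups only among neighbours and in the place of calprotectin. In both Cont-IMQ libraries *S100a11* had the highest FPKM, followed by *S100a9* and *S100a8*, whereas in both 7KC-IMQ libraries *S100a8* and *S100a9* stood above *S100a11*. *S100a14* was 4th and *S100a4*, *S100a3* and *S100a7a* were 8th, 9th and 10th in every library. *S100a6*, *S100a10* and *S100a16* held places 5 to 7 and exchanged them between libraries. *S100a8* was slightly below *S100a9* in both Cont-IMQ libraries (ratio 0.978 ± 0.00266, SD, n = 2), while under 7KC-IMQ the ratio lay on either side of 1 (0.986 ± 0.0280, SD, n = 2). *S100a6* (464 ± 30.2 FPKM) and *S100a10* (458 ± 44.7 FPKM, SD, n = 2) did not differ beyond their spread under Cont-IMQ, where their order differed between the libraries.

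Together the 10 genes held 1.00% (replicate 1) and 0.914% (replicate 2) of the summed FPKM with Cont-IMQ, against 1.70% (replicate 1) and 2.55% (replicate 2) with 7KC-IMQ. The 7KC-IMQ libraries were both above the Cont-IMQ libraries, by 1.17 percentage points between the means (two-sided exact permutation p = 0.33). *S100a8* and *S100a9* made up 39.2% and 36.5% of the members' summed FPKM in the Cont-IMQ libraries and 64.5% and 77.0% in the 7KC-IMQ libraries. The other 8 held 0.609% and 0.580% of the summed FPKM against 0.606% and 0.588%, with overlap between the groups (two-sided exact permutation p = 1). The difference of the whole set was therefore that of the calprotectin genes.

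Of the 10 members, 8 lie in 1 cluster on chromosome 3, from *S100a14*, at -142 kb from the start of *S100a8*, to *S100a9*, at 23.7 kb, and *S100a11* and *S100a10* lie 2852 and 2886 kb after it, beyond the rest of the epidermal differentiation complex. *S100a7a*, the nearest other member at -15.0 kb, had a log2 fold change of 0.47, or from -0.41 to 1.35 with a Cont-IMQ library left out, with overlap between the groups. The neighbours *S100a6* and *S100a4*, which start at -56.1 and -65.2 kb from *S100a8*, had log2 fold changes of 0.022 and 0.13 against 2.11. *S100a1* and *S100a13*, the family members outside the 10 at the far end of the cluster, had 60.0 and 82.0 FPKM against 68.5 and 65.9 FPKM, and 47.5 and 52.7 FPKM against 47.7 and 52.1 FPKM, with overlap between the groups. *S100a2* and *S100a5*, also in the cluster, were listed at 0 in every library, as was *S100z* on chromosome 13.

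**Figure D5:**
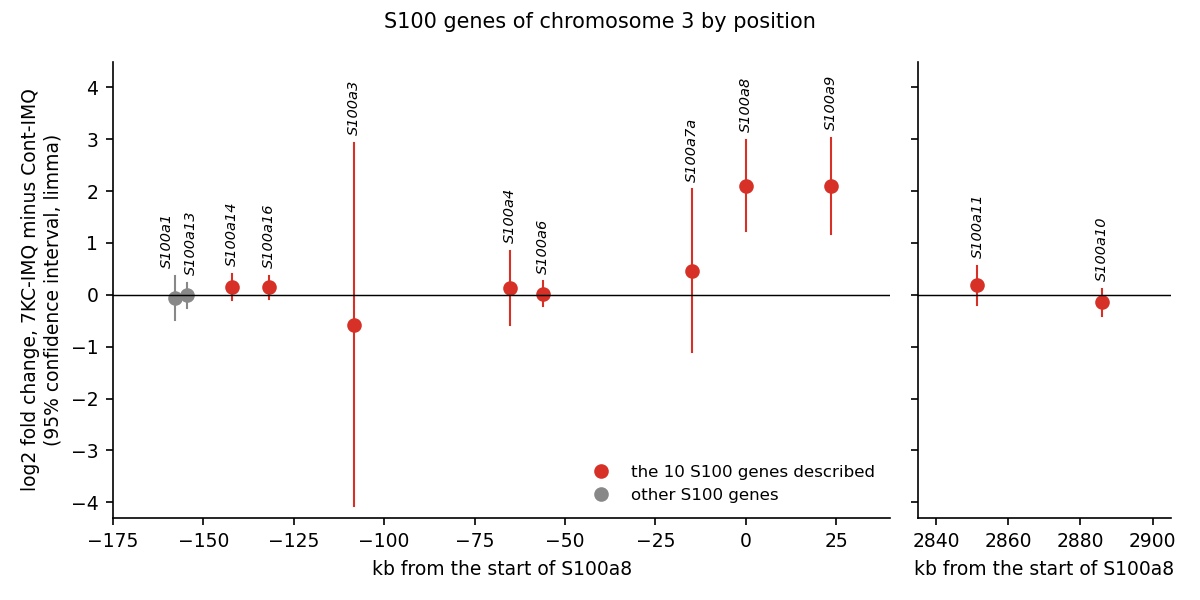
Log2 fold change (7KC-IMQ minus Cont-IMQ, vertical axis, with its 95% confidence interval in limma) of the S100 genes of chromosome 3 that lie in these 2 stretches and were tested, by the distance of their start from that of *S100a8* in kb (horizontal axis, drawn to the same scale in both panels). *S100a8* and *S100a9* at 0 and 23.7 kb stand at 2.11 and 2.10, and the other members lie between -0.57 and 0.47.

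Of the 8 other S100 genes, 5 were tested, 0 were higher and 1 was lower without overlap, and 0 passed after adjustment in limma. *S100g* and *S100a7l2* were each listed at 0 in 2 libraries and stood at 0.437 FPKM or less in the others. The gene that was lower was *S100b*, a marker of Schwann cells and melanocytes, with 1.74 and 1.53 FPKM with Cont-IMQ against 0.793 and 1.04 FPKM with 7KC-IMQ (log2 difference -0.46, adjusted p = 0.356 in limma). Fused-type S100 genes of the epidermal differentiation complex begin with an S100-like domain, and of the 6 tested 0 were higher and 2 lower without overlap. *Flg2*, which encodes filaggrin-2, had 96.3 and 79.0 FPKM against 59.9 and 34.9 FPKM, and *Hrnr*, which encodes hornerin, had 94.8 and 71.4 FPKM against 58.1 and 65.3 FPKM. Both were lower in the 7KC-IMQ libraries, whereas *Rptn*, the most abundant gene of this group, overlapped and was highest in 7KC-IMQ replicate 2, as *S100a9* was, with 73.6 and 63.1 FPKM against 52.6 and 186 FPKM (chosen after its values were seen). *Tchh*, also of this group, was highest in Cont-IMQ replicate 2, as *S100a3* was, and the median log2 fold change of the 6 was -0.31.

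The other marker lists, given in this paragraph, had median log2 fold changes below 0 except that of adipocytes (0.32). Of the lists described above, the medians were 1.14 for stress keratins, 0.14 for fibroblast and 0.11 for neutrophil genes, against -0.39 and -0.17 for the hair lists. Those of this paragraph were -0.016 for T cell genes (0.038 with quantile normalization), -0.090 for endothelial, -0.090 for skeletal muscle and -0.038 for red blood cell genes. Summed FPKM is given in the order Cont-IMQ replicates 1 and 2, then 7KC-IMQ replicates 1 and 2. Of 7 basal keratinocyte genes 2 were higher and 2 lower without overlap (1 and 3 after rescaling to the same summed FPKM). Their median log2 fold change was -0.018 (-0.10 after that rescaling, -0.13 with quantile normalization). The sums were 8095, 7254 and 8082, 8884 FPKM, *Krt14* being the most abundant. Of 7 suprabasal genes 0 were higher and 3 lower (*Krt77*, *Dsg1a* and *Ivl*), with a median of -0.20 (-0.28 after that rescaling, -0.35 with quantile normalization). Their sums were 18204.5, 11062 and 12219, 12979 FPKM, *Krt10* being the most abundant. These keratins and proteins mark the layers in which *S100a11* joins the cornified envelope. Among 12 macrophage and monocyte genes, marking cells that also hold *S100a4*, *S100a8* and *S100a9*, 0 were higher and 3 lower (*Cd68*, *Csf1r* and *Lyz2*; 0 and 6 after that rescaling or quantile normalization), with a median of -0.15 and sums of 980.0, 1192 and 931, 990.2 FPKM, *C1qb* being the most abundant. T cell genes had 1 higher and 2 lower of 6 tested (0 and 2 after that rescaling, 2 and 2 with quantile normalization), with sums of 21.0, 17.8 and 17.3, 13.8 FPKM (most abundant *Cd3g*). Endothelial genes had 1 higher and 2 lower of 5, with sums of 37.1, 41.6 and 34.3, 33.1 FPKM (most abundant *Pecam1*). The sums of these 2 lists were lowest in 7KC-IMQ replicate 2, where *S100a8* and *S100a9* were highest. So were those of the adipocyte list and of the neutrophil list above, but not those of the other lists of this paragraph. Adipocyte genes had 2 higher and 0 lower of 5, with sums of 973, 1412 and 1394, 951 FPKM (most abundant *Fabp4*). Skeletal muscle genes had 2 higher and 2 lower of 6 (2 and 3 after that rescaling or quantile normalization), with sums of 7074, 6985 and 5739, 6873 FPKM (most abundant *Acta1*), and red blood cell genes had sums of 27.0, 6.79 and 6.74, 25.6 FPKM (most abundant *Hba-a1*). Of the 3 red blood cell genes tested 0 were higher and 1 lower, *Hbb-bs*, whose values in 3 of the libraries are too low to be told apart (0.00438 FPKM in Cont-IMQ replicate 2 against 0.00392 and 0.00430 FPKM), and with quantile normalization 0 were lower. In limma 0 of the genes in these 8 lists passed after adjustment. At an unadjusted p under 0.05, 4 of them were higher and 11 lower, against 7.50% and 5.47% of all genes. The part of these cell types in the values of the S100 genes was not tested.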

How the data were processed

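RNA sequencing of dorsal skin, 2 libraries per group, was described from the values the authors deposited as FPKM per gene symbol. The authors aligned 75-base single-end reads to mm10 with TopHat and computed FPKM with Cufflinks or Cuffdiff, as their methods and the labels name different tools. Cuffdiff can also scale libraries to each other, and which scaling the values hold is not known, so the depths estimated below are depths on that scale. How reads that map to several genes were treated is not given in the sources used here. Groups were compared with limma 3.58.1 in R 4.3.3 on log2(FPKM + 1), with a variance trend, over genes with a mean of at least 0.1 FPKM, at an adjusted p of 0.05. The fit was tested on simulated data. Sums and ratios were compared by exact permutation over libraries. Python 3.11.15, pandas 2.3.3, scipy 1.17.1 and matplotlib 3.10.9 did the rest.

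Depth was estimated from the FPKM of low genes, where 76.9%, 75.9%, 74.5% and 74.7% of values fell within 0.1 of a whole read (20% by chance), so 3 reads or fewer carry little precision. Read numbers of genes assume a fragment length of 200 bases and the annotated transcript lengths. Windows of 75 bases were compared over GENCODE transcripts of GRCm38, the same build as mm10.

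Genes named are the 10 members, the other S100 genes, up to 6 genes of each list (the most abundant without overlap), genes needed to read a member and the 5 nearest profiles. The 22 lists hold 214 genes, of which 206 were found under their own symbol, 4 under another symbol and 4 not. The result of 1 list is not given. The members and lists were chosen with earlier results of these data known. Alternatives were a pseudocount of 0.1, a minimum mean of 1 FPKM, no filter, 3 scalings (median ratio, same summed FPKM, quantile), a block for the replicate number, a fit with no variance trend, each library left out, and the summed level without genes at 0 in any library or without *S100a8* and *S100a9*. Comparison of the protein sequences was left out because no protein table was at hand.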

Additional observations from a re-analysis of the deposited data

How the results depend on the processing

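Over the alternatives tried, 113 of 120 values of the members' log2 fold changes kept their direction and their side of the threshold, including all of those of *S100a8* and *S100a9*, 6 reversed and 1 passed the threshold. *S100a6* was -0.060 with the same summed FPKM in each library and -0.067 with quantile normalization. With each library left out in turn, *S100a3* ranged from -2.59 to 1.44, *S100a4* from -0.26 to 0.53, *S100a6* from -0.045 to 0.088 and *S100a7a* from -0.41 to 1.35, and the low ends of *S100a3* and *S100a7a* came without Cont-IMQ replicate 1. *S100a3* was then the 1 member past the threshold (from 0 to 1 over the left-out libraries), with an adjusted p of 0.0404 in limma and over its other alternatives the adjusted p lay between 0.167 (without Cont-IMQ replicate 2) and 0.984. These fits assume that a lone library varies like the others. The cause was not tested.

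The members higher without overlap numbered 4 with the same summed FPKM and 3 with quantile normalization, against 15.0% and 23.2% of all genes. With a library left out, where fewer libraries have to be apart, from 5 to 7 members were higher and from 1 to 3 lower. Over all genes the shares were then from 33.2% to 38.9% higher and from 33.5% to 39.1% lower. Over all genes, 2 passed with a pseudocount of 0.1 and from 1 to 11 with a library left out. The members' median was 0.066 with the same summed FPKM, 0.063 with quantile normalization, and from 0.11 to 0.20 with a library left out. The difference in summed level, 1.17 percentage points, was 0.00199 without *S100a8* and *S100a9*, and ranged from 0.746 to 1.59 with a library left out.

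With the replicate number as a block, *S100a8* stood at 2.11 (adjusted p = 0.400 in limma, over all alternatives 0.224 to 0.969) and no member passed, as without it. The deviations of libraries of the same number had a correlation of 0.0651 over 15896 genes, and nothing in the labels says what the numbers mark. Depth limits *S100a7a*, with at most 26.2 reads in Cont-IMQ replicate 1. With 2 libraries per group, no skin without imiquimod and no sign in the labels of separate mice, the differences describe these 4 libraries.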
